A study of Nematostella vectensis and Apis mellifera and Strongylocentrotus purpuratus with 22 samples.

Results

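Sperm DNA of the sea anemone Nematostella vectensis was compared between animals sampled from Massachusetts and from Florida, by whole-genome bisulfite sequencing (WGBS). In WGBS, unmethylated cytosines are converted and read as thymines, so that the methylation level of a CpG is the fraction of its reads that kept the cytosine. The comparison rests on 2 of the 22 samples of the series, 1 sperm sample from Massachusetts and 1 from Florida, with no treatment in either. CpGs were taken where both sperm samples had at least 5 reads, which gave 6221467 of the 8581976 CpGs listed in either of them. Windows of 1000 bp were taken where they held at least 3 such CpGs, which gave 248784 of the 310943 windows with a CpG in any of the 8 sea anemone samples. Animals of both populations were wild type and lived in laboratory culture. Males spawned apart from females, and slow centrifugation served to deplete somatic cells from the sperm. The labels give 1 replicate for each sperm sample and do not say how many males were pooled. The other sea anemone samples were cleavage embryos and blastulae from Massachusetts, and oocytes, cleavage embryos, blastulae and gastrulae from Florida.

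DNA methylation in animals is found mostly at CpGs, and it is copied to the new strand after replication by a maintenance methyltransferase. Cnidarians such as sea anemones have a mosaic methylome, in which densely methylated stretches, known to lie mostly over the bodies of transcribed genes, alternate with long unmethylated stretches. Sperm carries its methylome into the zygote, and differences between populations in sperm can therefore be looked for again in their embryos.

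Summed over CpGs, Massachusetts sperm had 90154514 read counts with a median of 11 per CpG, and Florida sperm had 303000996 with a median of 38. At the shared CpGs the medians were 13 reads in Massachusetts and 43 in Florida sperm. With 1 library for each population there was no replicate check, and the tests below compare 2 libraries. Population, animals, spawning and library cannot be told apart. Intervals and p-values cover counting error only. They take reads as independent, although a read pair can be counted at several CpGs and PCR copies are not separate molecules.

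The Massachusetts sperm library stood apart from the other samples of its own population. Sperm values were first read in windows chosen without sperm, where both Massachusetts embryo samples were methylated above 0.8 and the 4 other Florida samples were below 0.05. There were 525 such windows on 218 scaffolds. Their median level was 0.521 in Massachusetts sperm (25th to 75th percentile 0.430 to 0.598), against 0.00945 in Florida sperm. In the same windows the median was 0.899 in Massachusetts cleavage embryos and 0.887 in Massachusetts blastulae. Massachusetts sperm thus lay between its own embryos and the Florida samples. Of the 525 windows, 503 (95.8%) had a level between 0.2 and 0.8 in Massachusetts sperm, against 2 in Florida sperm. The windows of opposite kind, methylated in the other Florida samples and unmethylated in Massachusetts embryos, numbered 16, with a median of 0.336 in Massachusetts and 0.930 in Florida sperm. Single CpGs gave the same picture. At 14036 CpGs above 0.8 in both Massachusetts embryo samples and at or below 0.05 in the other Florida samples, the median was 0.533 in Massachusetts and 0 in Florida sperm. Where all other samples were alike, both sperm samples followed them. The median was 0.940 in Massachusetts and 0.950 in Florida sperm over 27196 windows methylated elsewhere, and 0.00893 in Massachusetts and 0.00826 in Florida sperm over 137362 windows unmethylated elsewhere. These bounds were chosen after values had been seen, no test was made on them, and the part of this library in the results that follow was not tested. Whether it holds sperm of Massachusetts animals alone cannot be told from these files, and Massachusetts sperm stands here for the library with that label.

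**Figure D1:**
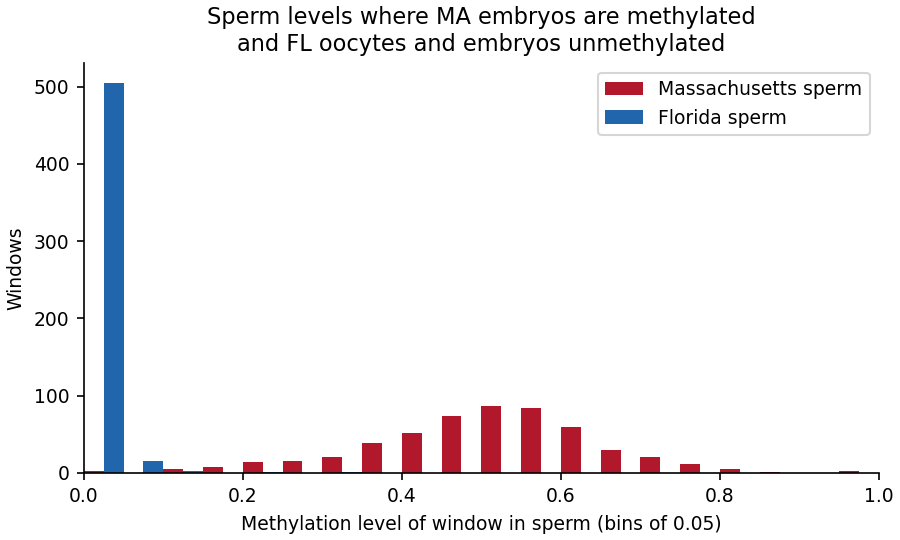
Number of windows (y axis) by methylation level in sperm (x axis, bins of 0.05), for the 525 windows above 0.8 in both Massachusetts embryo samples and below 0.05 in the 4 other Florida samples. Red bars are Massachusetts sperm, which centre on 0.521, and blue bars are Florida sperm, which stand in the lowest bins.

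Global methylation was slightly higher in Massachusetts sperm. The mean level over the 6221467 shared CpGs was 0.132 in Massachusetts and 0.116 in Florida sperm, a difference of 0.0155 (95% interval for counting error 0.0155 to 0.0156). The difference was somewhat smaller at the edge of the read minimum, with 0.0132 at exactly 5 Massachusetts reads and 0.0131 at exactly 4. CpGs with exactly 5 Massachusetts reads averaged 0.127 in Massachusetts and 0.114 in Florida sperm, and those with exactly 4, which were left out, averaged 0.125 in Massachusetts and 0.112 in Florida sperm. Over windows the mean level was 0.222 in Massachusetts and 0.207 in Florida sperm, whereas the median window had 0.0142 in Massachusetts and 0.0105 in Florida sperm. Most of the genome was therefore at the unmethylated end in both, and the levels of the windows in Massachusetts and Florida sperm correlated with r = 0.966 (a description over 248784 windows of 2 libraries). At the edge of the CpG minimum, windows with 3 shared CpGs differed by a mean of 0.00803, and those with 2, which were left out, by 0.00785.

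The mosaic was present in both sperm libraries, and they differed most often in windows of intermediate level in Massachusetts sperm. Windows below 0.2 are called unmethylated here, those above 0.8 methylated, and the rest intermediate. Massachusetts sperm had 72.1% of its windows unmethylated, 11.6% intermediate and 16.3% methylated. Florida sperm had 74.98% unmethylated, 8.68% intermediate and 16.3% methylated. The share of methylated windows was thus alike, and Massachusetts sperm had more intermediate and fewer unmethylated windows. In 71.4% of windows both were unmethylated, and in 15.1% both were methylated. The commonest change of class was from intermediate in Massachusetts to unmethylated in Florida sperm, in 8694 windows. These windows contributed 0.0114 to the mean window difference of 0.0144, which sums parts of both signs. The opposite combination, unmethylated in Massachusetts and intermediate in Florida sperm, held in 1619 windows and contributed -0.00123. Windows unmethylated in both contributed 0.00325 and those intermediate in both 0.00215. Levels were not corrected for incomplete conversion, which by the paper's rates was slightly greater in the Massachusetts sperm library. Windows methylated in Massachusetts and intermediate in Florida sperm contributed 0.00192, and those intermediate in Massachusetts and methylated in Florida sperm -0.00225. Windows methylated in both were slightly lower in Massachusetts sperm, by a mean of -0.00800, so that the excess in Massachusetts did not come from the densely methylated windows.

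**Figure D2:**
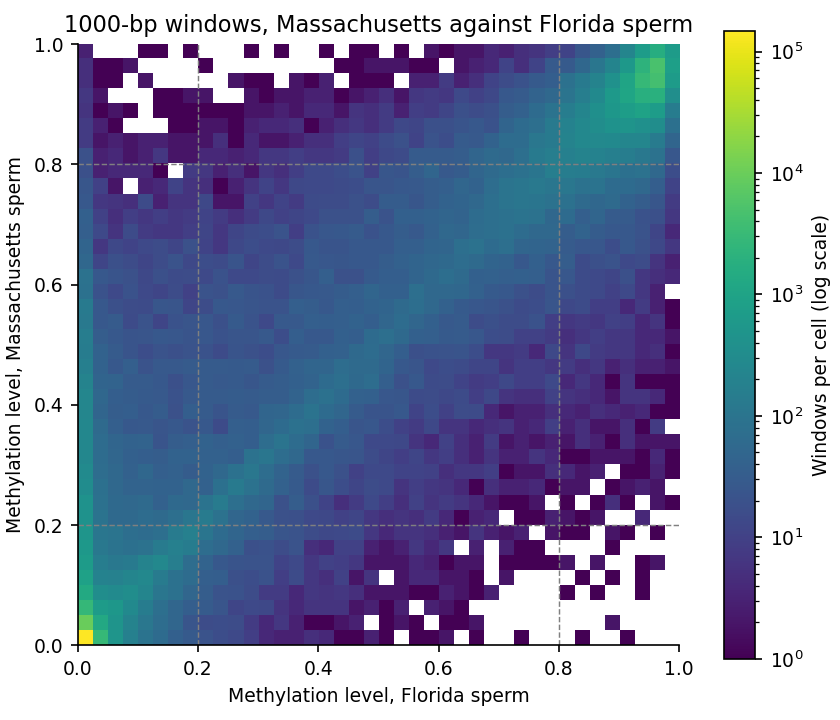
Methylation level of 248784 windows of 1000 bp in Massachusetts sperm (y axis) against Florida sperm (x axis), with colour giving the number of windows per cell on a log scale and dashed lines at 0.2 and 0.8. Most windows lie in the 2 corners on the diagonal, and the region above it at low Florida levels is filled more densely than the region below it.

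To find single windows that differed, the reads of each window were summed and put to Fisher's exact test, with p-values adjusted by Benjamini-Hochberg over all 248784 windows. A window was called where its adjusted p was below 0.05 and its mean levels were 0.2 or more apart. By this rule 9836 windows (3.95% of those tested) were higher in Massachusetts sperm, and 2353 (0.946%) were higher in Florida sperm. Together they made up 4.90% of windows. When the reads of a window were divided by its CpGs, so that it counted as a single CpG, 1841 windows were called higher in Massachusetts and 117 in Florida sperm. At any size of difference 35165 windows (14.1%) passed the adjusted p, and 508 windows differed by at least 0.2 without passing it. Without the called windows the mean level was 0.208 in Massachusetts and 0.205 in Florida sperm, over 236595 windows.

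Windows higher in Massachusetts sperm were for the most part unmethylated in Florida sperm. Their mean level was 0.511 in Massachusetts and 0.148 in Florida sperm, with a median difference of 0.33 (25th to 75th percentile 0.256 to 0.439). Of the 9836 windows, 6983 were unmethylated in Florida sperm, with means of 0.431 in Massachusetts and 0.0463 in Florida sperm. The other 2853 were intermediate in Florida sperm, with means of 0.707 in Massachusetts and 0.396 in Florida sperm. Single CpGs in these windows were mostly neither methylated nor unmethylated in Massachusetts sperm. Among 30043 of their CpGs with at least 20 reads in both, 91.6% lay between 0.1 and 0.9 in Massachusetts sperm, against 29.5% in Florida sperm, where 69.3% were at or below 0.1. In windows that were not called, 8.94% of 732010 such CpGs lay between these bounds in Massachusetts and 5.86% in Florida sperm. The number of CpGs in the windows was close to that of all windows, with a median of 30 listed CpGs against 31 over all windows. Depth was also close, with a median of 12.5 reads per CpG in Massachusetts and 41.0 in Florida sperm, against 12.6 in Massachusetts and 42.0 in Florida sperm over all windows.

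Windows higher in Florida sperm were fewer, and Massachusetts sperm was again mostly intermediate in them. Their mean level was 0.376 in Massachusetts and 0.702 in Florida sperm, with a median difference of -0.29. Of the 2353 windows, 967 were methylated in Florida sperm, with means of 0.551 in Massachusetts and 0.901 in Florida sperm. The other 1386 were intermediate in Florida sperm, with means of 0.254 in Massachusetts and 0.563 in Florida sperm. At 4684 CpGs of these windows with at least 20 reads in both, 77.2% lay between 0.1 and 0.9 in Massachusetts and 67.7% in Florida sperm. These windows held fewer CpGs than the windows higher in Massachusetts sperm, with a median of 23 listed CpGs, and windows methylated in both held fewer still, with a median of 12.

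A full switch of class between the sperm libraries was rare. There were 129 windows methylated in Massachusetts and unmethylated in Florida sperm, and 24 unmethylated in Massachusetts and methylated in Florida sperm. All of them were among the called windows. Depth was lower in them than elsewhere. The 129 windows had a median of 8.68 reads per CpG in Massachusetts and 16.4 in Florida sperm, and the 24 windows had 9.40 in Massachusetts and 19.6 in Florida sperm. With at least 10 reads per CpG in both, 77 windows were in the first class and 18 in the second. Of the 129 windows 63 could still be tested then and 48 were still in their class, and of the 24 windows 12 could be tested and 10 were in their class. With Florida reads thinned to the depth of Massachusetts, the counts were 93 and 17, and with bounds of 0.1 and 0.9 they were 26 and 2. By the same bounds of 0.2 and 0.8, 998 windows were methylated in both Massachusetts embryo samples and unmethylated in the 4 other Florida samples. The opposite held in 45 windows. These levels were taken over each sample's own CpGs in windows with data in all of these samples, so that the windows counted differ from those of sperm. Among single CpGs, 2754 (0.0443%) were above 0.9 in Massachusetts and at or below 0.1 in Florida sperm, and 2506 of these lay in windows called in that direction. Another 652 (0.0105%) were at or below 0.1 in Massachusetts and above 0.9 in Florida sperm, and 483 of these lay in windows called in that direction. Most of these CpGs had few reads. With at least 20 reads in both, 39 (0.00508% of 767668 CpGs) and 15 (0.00195%) were in these classes.

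The embryos, which share no library with the sperm, showed the same direction in most called windows. Among windows higher in Massachusetts sperm, 8909 had data in both populations at both embryo stages. In 8574 of them (96.2%) the level was higher in Massachusetts than in Florida embryos at cleavage and at blastula, against 34.5% over all 220349 windows with such data. In 7173 (80.5%) the difference was at least 0.2 at both stages, against 5.14% over all windows. The mean levels of the 8909 windows were 0.508 in Massachusetts and 0.149 in Florida sperm, 0.669 and 0.190 in cleavage embryos of Massachusetts and Florida, and 0.647 and 0.191 in their blastulae. The signed difference, Massachusetts minus Florida, was larger in embryos than in sperm at both stages in 5596 of these windows (62.8%). Over all windows it was larger in 36.4%, but 84.2% of all windows differed by less than 0.1 at both embryo stages. Florida levels were low in all stages, and the wider gap in embryos lay on the Massachusetts side. Of the 8854 windows higher in Massachusetts sperm with data in every sample, 8.12% were methylated in Massachusetts sperm, against 37.4% in Massachusetts cleavage embryos and 32.6% in Massachusetts blastulae.

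For windows higher in Florida sperm the share was lower. Of 1971 such windows with embryo data, 1605 (81.4%) were lower in Massachusetts than in Florida embryos at both stages, against 19.4% over all windows. The difference was at least 0.2 at both stages in 990 (50.2%), against 0.859% over all windows. The signed difference, Florida minus Massachusetts, was larger in embryos than in sperm at both stages in 610 (30.9%), close to the 28.2% over all windows. Their mean levels were 0.372 in Massachusetts and 0.693 in Florida sperm, 0.313 and 0.566 in cleavage embryos of Massachusetts and Florida, and 0.305 and 0.572 in their blastulae. Over all 220349 windows, the difference between populations in sperm correlated with that in cleavage embryos with r = 0.756 and with that in blastulae with r = 0.781, as a description.

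Over all 8 samples, the populations did not overlap in most called windows. All 3 Massachusetts samples were above all 5 Florida samples in 8026 of 8854 windows higher in Massachusetts sperm (90.6%, against 12.4% over all 220448 windows with data in every sample). All 3 Massachusetts samples were below all 5 Florida samples in 1323 of 1979 windows higher in Florida sperm (66.9%, against 4.28%). Sperm was part of how these windows were chosen, so that the order of the 2 sperm samples in them is no finding. The reverse choice gives the populations without the Massachusetts sperm library. In embryos, 11327 windows were higher in Massachusetts by at least 0.2 at both stages and 1892 were higher in Florida by as much, so that the excess on the Massachusetts side was present in embryos as well. In the 11327 windows sperm averaged 0.463 in Massachusetts and 0.191 in Florida, with the same sign in 94.7% and a call in 63.3%, against 53.9% and 4.04% over all windows with embryo data. In the 1892 windows sperm averaged 0.419 in Massachusetts and 0.641 in Florida, with the same sign in 90.6% and a call in 52.3%, against 44.9% and 0.894% over all of these.

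**Figure D3:**
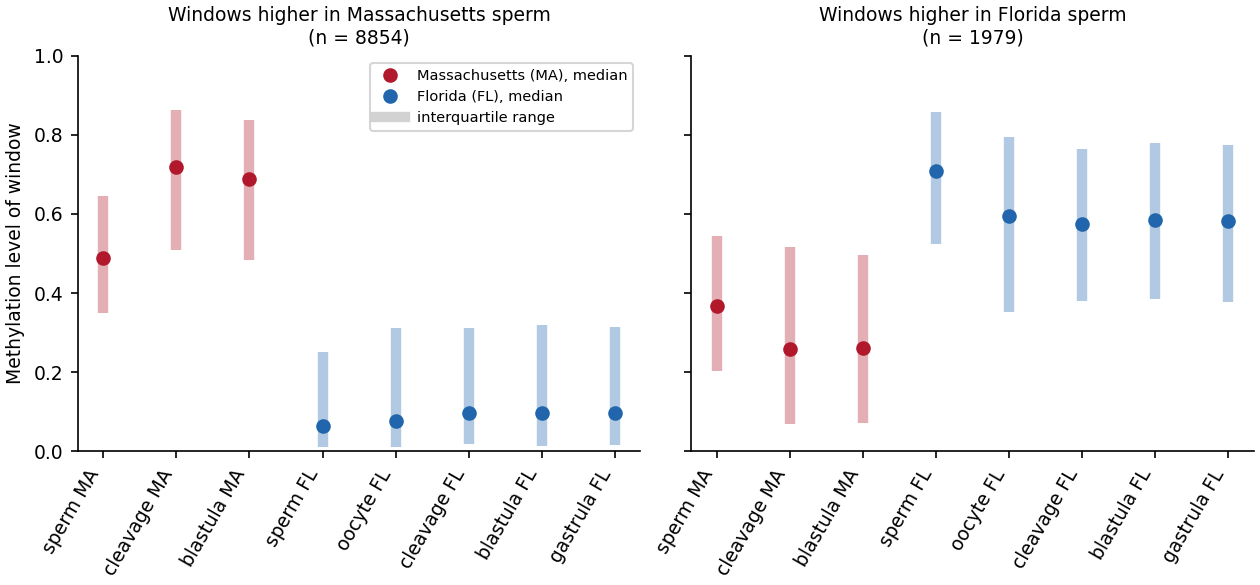
Median methylation level (points) and 25th to 75th percentile (bars) in the 8 sea anemone samples, for 8854 windows higher in Massachusetts sperm (left) and 1979 windows higher in Florida sperm (right), with Massachusetts (MA) in red and Florida (FL) in blue. On the left the Massachusetts medians are 0.487 in sperm, 0.719 in cleavage embryos and 0.689 in blastulae, and all Florida medians are below 0.1.

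Called windows lay next to each other. Where the following window had been tested too, 53.5% of windows higher in Massachusetts sperm were followed by another in the same direction, against 3.91% over all windows. For windows higher in Florida sperm this share was 29.7%, against 0.852%. Joined in this way, the 9836 windows higher in Massachusetts sperm made 5280 runs, of which 3249 (61.5%) were single windows, 319 had at least 5 windows and 47 at least 10. The 2353 windows higher in Florida sperm made 1791 runs, of which 1433 (80.0%) were single windows, 23 had at least 5 windows and 2 at least 10. Windows higher in Massachusetts and unmethylated in Florida sperm touched a window methylated in Florida sperm in 438 of 5390 cases with both neighbours tested (8.13%). This was the case for 4.70% of unmethylated windows that were not called. Most windows of either kind thus touched no window methylated in Florida sperm.

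The longest run higher in Massachusetts sperm had 25 windows and 797 shared CpGs, on scaffold_61 from 785001 to 810000 (assembly ASM20922v1, positions counted from 1). Its mean level was 0.451 in Massachusetts and 0.0637 in Florida sperm. The means were 0.631 in Massachusetts and 0.0664 in Florida cleavage embryos, and 0.589 in Massachusetts and 0.0694 in Florida blastulae. All Florida samples were close to each other here, oocytes having 0.0715 and gastrulae 0.0629. The windows of the run ranged over 0.251 to 0.722 in Massachusetts and 0.00329 to 0.476 in Florida sperm.

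A run of 21 windows with 688 shared CpGs on scaffold_141 from 136001 to 157000 had 0.548 in Massachusetts and 0.0896 in Florida sperm. Its embryos were further apart, with 0.870 in Massachusetts and 0.0700 in Florida cleavage embryos, and 0.883 in Massachusetts and 0.0731 in Florida blastulae. Massachusetts sperm thus had an intermediate level over a stretch that was methylated almost throughout in Massachusetts embryos. Inside the run the window levels ranged over 0.264 to 0.788 in Massachusetts and 0.00139 to 0.362 in Florida sperm. On scaffold_9, 19 windows with 481 shared CpGs from 1800001 to 1819000 had 0.500 in Massachusetts and 0.0776 in Florida sperm, and 0.755 in Massachusetts and 0.0710 in Florida blastulae.

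Runs higher in Florida sperm were shorter. On scaffold_56 from 47001 to 58000, 11 windows with 342 shared CpGs had 0.244 in Massachusetts and 0.694 in Florida sperm. Massachusetts embryos were unmethylated there, with 0.0111 against 0.530 in Florida at cleavage and 0.00837 against 0.569 in Florida blastulae. Massachusetts sperm was therefore above its own embryos. On scaffold_46 from 299001 to 310000, 11 windows with 276 shared CpGs had 0.299 in Massachusetts and 0.728 in Florida sperm, and 0.168 in Massachusetts and 0.611 in Florida blastulae. On scaffold_103 from 243001 to 252000, 9 windows with 339 shared CpGs had 0.349 in Massachusetts and 0.937 in Florida sperm. In that run Florida sperm had the highest level of all samples, as Florida blastulae had 0.743, gastrulae 0.743 and oocytes 0.403, and Massachusetts blastulae had 0.0777. The 4 windows before it were methylated in both, from 0.899 to 0.967 in Massachusetts and 0.941 to 0.970 in Florida sperm. The methylated stretch thus went on for 9 kb further in Florida sperm. Many CpGs of the window from 247001 recurred at even steps, for example at 274, 325, 376 and 427 bp from its start. Whether the sequence is repeated there was not tested.

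**Figure D4:**
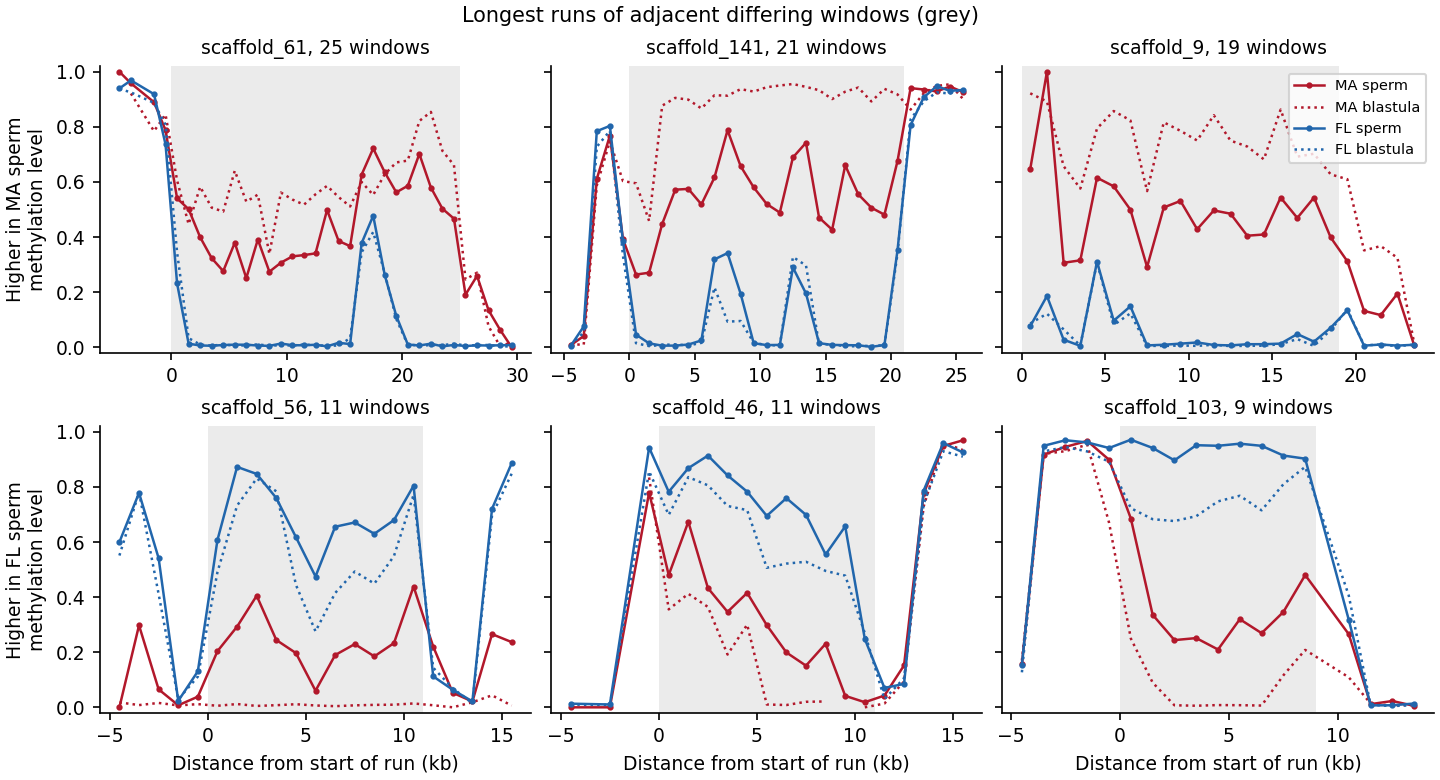
Window level (y axis) by distance from the start of the run in kb (x axis) for the 3 longest runs higher in Massachusetts sperm (top) and in Florida sperm (bottom), with the run in grey, Massachusetts in red, Florida in blue, sperm as solid and blastula as dotted lines. In all 6 runs Massachusetts sperm lies between Florida sperm and Massachusetts blastulae over most of the run, for example with 0.548 between 0.0896 and 0.883 on scaffold_141.

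Windows with the largest differences, among called windows with at least 10 shared CpGs and at most 1 per run, were chosen by these differences, which are given as values. All 10 higher in Massachusetts sperm were methylated in Massachusetts and unmethylated in Florida sperm. All 10 higher in Florida sperm were methylated in Florida sperm, and 6 of them were unmethylated in Massachusetts sperm. In the 10 named windows higher in Massachusetts sperm the difference of mean levels ranged over 0.870 to 0.989, and in the 10 higher in Florida sperm over -0.925 to -0.729. Depth in them was low. The median over the named windows was 8.64 reads per CpG in Massachusetts and 14.1 in Florida sperm for those higher in Massachusetts, and 9.46 in Massachusetts and 21.1 in Florida sperm for those higher in Florida. No annotation of ASM20922v1 was used here, so that the genes at these windows are not given.

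The window at scaffold_1474 from 10001 to 11000 had the most CpGs among those higher in Massachusetts sperm. Its 36 shared CpGs averaged 0.929 in Massachusetts and 0.00412 in Florida sperm. Of the read counts summed over these CpGs, 305 of 329 were methylated in Massachusetts and 2 of 551 in Florida sperm. The median depth per CpG was 9 reads in Massachusetts and 15.5 in Florida sperm. Since 1 read can be counted at several CpGs, no interval or p-value is given for these counts. Every CpG was at 0.778 or higher in Massachusetts and at 0.0769 or lower in Florida sperm. Blastulae had 0.932 in Massachusetts and 0.0315 in Florida. Massachusetts sperm and blastulae thus had close levels in this window. A second window on the same scaffold, from 3001 to 4000, had the largest difference of all named windows. Its 15 CpGs averaged 0.989 in Massachusetts and 0 in Florida sperm, where 0 of 192 summed read counts were methylated.

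Other named windows also had near-complete methylation in Massachusetts sperm. On scaffold_430 from 7001 to 8000, 11 CpGs averaged 0.976 in Massachusetts and 0 in Florida sperm. On scaffold_64 from 874001 to 875000, 22 CpGs averaged 0.959 in Massachusetts and 0.00649 in Florida sperm. The window at scaffold_176 from 422001 to 423000 had 34 CpGs at 0.880 in Massachusetts and 0.00984 in Florida sperm, and blastulae of 0.869 in Massachusetts and 0 in Florida. Embryos differed by at least 0.2 in the same direction in 9 of 10 named windows at blastula. At cleavage all 7 windows with data at CpGs shared by both populations did so, and 7 of 8 over each sample's own CpGs.

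The exception at blastula was the window at scaffold_13 from 488001 to 489000. Its 35 CpGs averaged 0.972 in Massachusetts and 0.0751 in Florida sperm. Of the read counts summed over these CpGs, 227 of 233 were methylated in Massachusetts and 91 of 1191 in Florida sperm. Florida sperm stood alone here. All other samples were high, with 0.950 in Massachusetts blastulae, 0.773 in Florida blastulae, 0.760 in Florida oocytes and 0.789 in Florida gastrulae. Cleavage embryos had 0.943 in Massachusetts, and in Florida 0.685 over CpGs shared by both and 0.819 over their own CpGs. The window at scaffold_730 from 43001 to 44000 stood apart in another way, with 0.917 in Massachusetts and 0.00688 in Florida sperm, but 0.500 in Massachusetts and 0.00825 in Florida blastulae. At scaffold_6 from 859001 to 860000 sperm had 0.927 in Massachusetts and 0.0129 in Florida, while Florida oocytes had 0.0406 and Florida blastulae 0.491.

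Among the named windows higher in Florida sperm, the window at scaffold_3794 from 6001 to 7000 had the largest difference. Its 11 CpGs averaged 0 in Massachusetts and 0.925 in Florida sperm. Of the read counts summed over these CpGs, 0 of 108 were methylated in Massachusetts and 202 of 214 in Florida sperm. Reads recur in these counts, as the median depth per CpG was 11 reads in Massachusetts and 21 in Florida sperm. Blastulae were alike, with 0 in Massachusetts and 0.962 in Florida. The other 9 windows were not at 0 in Massachusetts sperm, where their levels ranged over 0.0766 to 0.239. The window at scaffold_1401 from 25001 to 26000 had the most CpGs of them, with 31 CpGs at 0.218 in Massachusetts and 0.948 in Florida sperm. Massachusetts blastulae had only 0.0228 there, against 0.801 in Florida blastulae. All 10 windows had the same direction by at least 0.2 in embryos at both stages.

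In several of these windows sperm and oocytes of Florida were both near full methylation. At scaffold_235 from 373001 to 374000, for example, sperm had 0.136 in Massachusetts and 0.950 in Florida, and Florida oocytes had 0.954. At scaffold_238 from 133001 to 134000 the gametes of Florida differed instead, as sperm had 0.182 in Massachusetts and 0.924 in Florida, and Florida oocytes had 0.387.

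**Figure D5:**
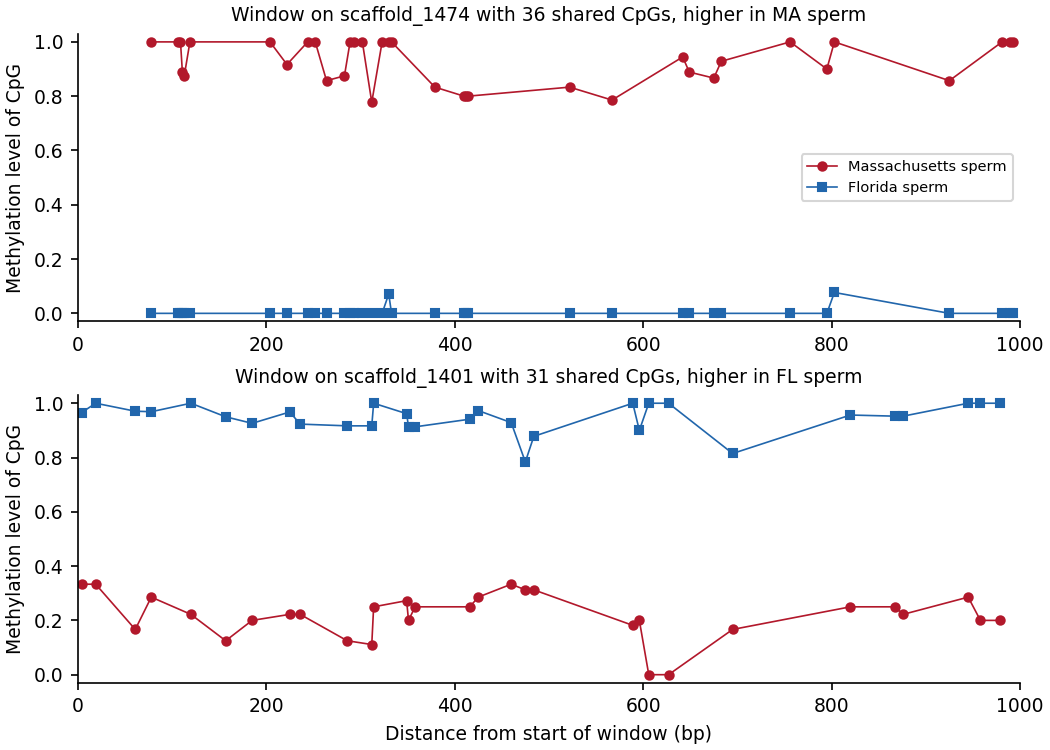
Methylation level of each shared CpG (y axis) by its distance from the start of the window in bp (x axis), in the named window with the most CpGs in each direction, with Massachusetts sperm in red and Florida sperm in blue. In the window on scaffold_1474 the CpGs average 0.929 in Massachusetts and 0.00412 in Florida sperm, and in that on scaffold_1401 they average 0.218 in Massachusetts and 0.948 in Florida sperm, with no overlap in either.

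The differences were spread over the genome, but not evenly. On 142 scaffolds with at least 500 windows, the share of windows higher in Massachusetts sperm ranged over 0.397% to 16.8% with a median of 3.31%. The share higher in Florida sperm ranged over 0% to 3.37% with a median of 0.730%. Of the 142 scaffolds, 131 had more windows higher in Massachusetts and 133 had a higher mean level in Massachusetts sperm. The highest share was found on scaffold_135, where 89 of 530 windows were higher in Massachusetts and 0 in Florida sperm. On scaffold_12, with 1738 windows, 12 were higher in Massachusetts and 14 in Florida sperm.

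Methylation was lower at higher CpG density in both populations. Windows with 3 to 10 listed CpGs averaged 0.688 in Massachusetts and 0.685 in Florida sperm, and those with 41 to 60 averaged 0.0587 in Massachusetts and 0.0429 in Florida sperm. The share called higher in Massachusetts sperm was largest, 4.81%, at 21 to 30 listed CpGs, and was 2.90% at 3 to 10 and 2.89% at 61 or more. The share higher in Florida sperm was 1.51% at 3 to 10 listed CpGs, 1.54% at 11 to 20 and 0.403% at 61 or more. Over 4 groups of windows ordered by reads per CpG in Massachusetts sperm, the share higher in Massachusetts lay between 3.77% and 4.12%. The share higher in Florida sperm was 1.26% in the group of lowest depth and 0.793% in that of highest depth.

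CpGs that were covered in only 1 of the sperm libraries could not be compared. There were 66023 CpGs with at least 5 reads in Massachusetts and 0 in Florida sperm, with a mean level of 0.179 in Massachusetts, and 287142 with at least 5 reads in Florida and 0 in Massachusetts sperm, with a mean level of 0.163 in Florida.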

How the data were processed

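Sperm-derived WGBS libraries of Nematostella vectensis, 1 from Massachusetts and 1 from Florida, were analysed, and the other sea anemone libraries were used for comparison. Per the paper's methods, the authors used Trimmomatic for trimming and Bismark for alignment to ASM20922v1 and lambda DNA, removed duplicates, clipped overlapping mates with bamUtil and joined both strands. The versions of Trimmomatic and Bismark are not given in the sources used here, and the submitters' processing notes name SAMtools 0.1.19. The authors deposited, for each CpG, the counts of methylated and unmethylated reads and the level as a fraction. The counts were used here, with no correction for non-conversion. By the conversion rates in the paper, non-conversion was slightly greater in Massachusetts than in Florida sperm. Its part in the differences between the sperm libraries was not tested. In the deposited counts, Florida cleavage embryos and gastrulae pool replicates, per the labels. Starts were taken to count from 0, and positions here count from 1.

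A mean level was taken over those CpGs that had 5 or more reads in each sperm library. Windows of 1000 bp with at least 3 such CpGs were tested by the 2-sided Fisher's exact test on summed reads, with Benjamini-Hochberg adjustment over all windows. Called windows had an adjusted p below 0.05 and mean levels 0.2 or more apart. The named windows are, per direction, the 10 with the largest difference among called windows with at least 10 CpGs, at most 1 per run, and the 3 longest runs. For embryos, a window needed 3 or more CpGs that had 5 or more reads in each population. The comparison, its thresholds and named windows were chosen with earlier results of these data known. Alternatives in read minimum, window size, thresholds and depth were tried. Gene bodies, promoters, intergenic regions and gene lists are not analysed here, since no annotation of ASM20922v1 was used. Genotypes were not used, so that CpGs lost by sequence differences are not recognised. Repeated sequence was not marked, so that the placement of reads in repeats was not checked. Read counts summed over CpGs ranged over 69290307 to 389977166 per library. The window test was tried on simulated data. Reads were drawn there independently for each CpG, so that the dependence of reads between CpGs was not probed. Calculations used Python 3.11.15 with numpy 2.4.6, scipy 1.17.1, pandas 2.3.3, numba 0.67.0 and matplotlib 3.10.9.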

Additional observations from a re-analysis of the deposited data

Results flagged for a closer look

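In 14 windows the level was higher in Massachusetts than in Florida sperm by the call, and lower in Massachusetts than in Florida embryos by at least 0.2 at cleavage and at blastula. They were picked out because sperm and embryos moved in opposite directions. They made up 0.157% of 8909 called windows with embryo data, against 0.859% of all 220349 windows with such an embryo difference. In 53 windows (2.69% of 1971) the level was higher in Florida sperm, and lower in Florida than in Massachusetts embryos by at least 0.2 at both stages. Over all windows such an embryo difference was found in 5.14%, so that neither share of called windows exceeded that over all windows. The difference between sperm and embryos was not tested in either case, since each stage has 1 set of counts per population.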

How the results depend on the processing

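No paired analysis was possible because each population has 1 sperm library. The mean difference over shared CpGs stayed positive under all alternatives run. It was 0.0151 with at least 1 read, 0.0158 with at least 10 and 0.0172 with at least 20, 0.0179 with reads pooled over CpGs, 0.0150 with Florida reads thinned to the depth of Massachusetts and 0.0119 after the median window level was subtracted. Of 428787 windows of 500 bp, 17758 (4.14%) were higher in Massachusetts and 4614 (1.08%) in Florida sperm. Of 139865 windows of 2000 bp, 5159 (3.69%) were higher in Massachusetts and 1091 (0.780%) in Florida sperm. In windows of 1000 bp with a minimum difference of 0.1, 15704 were higher in Massachusetts and 5088 in Florida sperm. With a minimum of 0.3 these windows numbered 5873 and 1076. Divided by the number of CpGs, so that a window counts as 1 CpG, the reads gave 1841 and 117 calls, which by construction have less power. With Florida reads thinned, 8555 of 9235 windows still tested kept their call for Massachusetts and 1808 of 2144 for Florida, with 0 reversed. Windows methylated in Massachusetts and unmethylated in Florida sperm numbered 26 with bounds of 0.1 and 0.9 and 77 with at least 10 reads, and the opposite switch had 2 windows with bounds of 0.1 and 0.9. The share of windows higher in Massachusetts sperm with the same direction in embryos was 80.5% with a difference of at least 0.2, 97.0% with at least 10 reads, 97.5% at cleavage alone and 97.2% at blastula alone. For windows higher in Florida sperm it was 50.2% with a difference of at least 0.2, 85.1% at cleavage alone and 87.0% at blastula alone. CpGs that switched numbered 1046 (methylated in Massachusetts, 0.0234% of those tested) and 278 (methylated in Florida, 0.00623%) with at least 10 reads. With at least 20 reads they numbered 39 (0.00508%) and 15 (0.00195%). The causes of these changes were not tested. Of 146 values of the named windows and runs, 142 kept their direction, and for windows also their call. The other 4, all of windows, lost the call when reads were divided by CpGs, and 0 were reversed. Runs were checked for direction only. The stricter minimum difference and the stricter adjusted p could not end a call here, since the named windows lay far beyond both. Of the 20 named windows, 8 could not be tested with at least 10 reads and 4 could not with Florida reads thinned. The median of 0.521 in Massachusetts sperm, under alternatives chosen after seeing the data, lay between 0.528 and 0.536. Results for gene bodies, promoters and intergenic regions were not run. Depth limits single CpGs in Massachusetts sperm, where the median was 11 reads.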
